A study of Mus musculus with 12 samples.

Results

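The first 791 bases of the mouse 16S ribosomal RNA, which the mitochondrial gene mt-Rnr2 encodes, were examined base by base. On the plus strand of chrM in the mm10 genome they begin right after position 1093, the last base of the valine tRNA gene mt-Tv, and end right before position 1885. They are the 5′ portion of a gene of 1582 bases that ends at position 2675, and they were chosen by position alone. They make up 791 of the 16292 positions of the mitochondrial genome in the deposited per-base tables, which cover all 12 libraries. Base 1 is the first base of the 16S rRNA throughout, and positions are counted from 1 at the start of chrM.

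The libraries were made from total RNA of mouse hearts and form 4 groups of 3 replicates. The knockout (KO) groups are hearts labelled as knockouts of PTCD1, which is a pentatricopeptide repeat protein of mitochondria known to associate with the 16S rRNA, and the wild-type (WT) groups are hearts labelled wild type. Each genotype was sequenced untreated and after CMC, a carbodiimide that attaches to uridine and guanosine and, after alkaline washing, stays mainly on pseudouridine, where it disturbs reverse transcription. In all 12 libraries cytoplasmic ribosomal RNA had been removed with a Ribo-Zero kit, so mitochondrial ribosomal RNA was not a target of the removal. The sources used here do not give the age or sex of the mice, how many mice went into a library, how the gene was deleted or in which cells. Nothing in the labels says that the 3 replicates are separate animals, so every p-value measures the spread between these libraries, which may be technical.

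The 16S rRNA is the RNA core of the large subunit of the mitochondrial ribosome, which translates the mitochondrial mRNAs. It is transcribed as part of a long precursor in which it follows mt-Tv directly, and it is released when the processing enzymes cut the tRNAs out at their ends. It carries methylated bases and, as known from human cells, pseudouridine, and heart muscle, which depends on oxidative phosphorylation, holds it in large amounts.

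The sequences that the results turn on were read from the reference column of the deposited tables. The stretch chrM:1084-1153, which holds the last 10 bases of mt-Tv and the first 60 of the 16S rRNA, is shown because depth rises steeply within it. The capitals mark bases 12 and 13, at which depth rose most steeply on a log scale in untreated WT libraries.
5-prime end: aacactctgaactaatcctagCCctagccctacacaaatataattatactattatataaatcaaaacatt
The stretch chrM:1262-1361 is shown because reverse-strand reads of KO libraries ended in it; the capitals mark the bases at chrM:1347-1349, over which reverse depth fell.
End of reverse reads: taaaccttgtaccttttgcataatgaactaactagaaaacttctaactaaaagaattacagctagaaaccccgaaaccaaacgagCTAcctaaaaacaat
For the read errors, 21 bases around each site are shown with the site in capitals. The deletion sites lie at the first base of a run of 4 T, of 6 A and of 7 A, at a G 2 bases before the 6 A, and in a stretch of alternating T and A.
Deletion at 1592: acaaaacagcTtttaaccatt
Deletion at 1556: tctggaacggAaaaaaccttt
Deletion at 1488: taaacttgctAaaaaaacaac
Deletion at 1554: cttctggaacGgaaaaaacct
Deletion at 1136: attatactatTatataaatca
The next 4 are C at which reads with T became more frequent after CMC, and the last is the site with the highest share of mismatches in the stretch.
Mismatch at 1588: attaacaaaaCagcttttaac
Mismatch at 1648: tcaagctcaaCataaaatttc
Mismatch at 1553: tcttctggaaCggaaaaaacc
Mismatch at 1786: tataacaactCggataaccat
Mismatch at 1680: taatttacacCaacttcctaa

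Total gene counts were 10389398 to 12462093 per library, of which 2683284 to 3187748 fell in nuclear genes. The Ptcd1 gene had 28, 17 and 19 counts in untreated KO libraries against 78, 71 and 74 in WT, and 23, 21 and 20 against 79, 103 and 74 after CMC. The labels and the targeted gene thus went the same way, with no overlap, although KO libraries held some Ptcd1 reads. Heart muscle was the labelled tissue, and its markers were present in every library, while liver markers reached at most 0.701 per 1000000 nuclear counts and skeletal muscle markers 5.38. The skeletal muscle gene Myh4 split by genotype, with 12, 11 and 6 counts in untreated KO against 0, 0 and 0 in WT. After CMC it had 12, 4 and 13 against 0, 1 and 1. The 5 cardiomyocyte markers (Myh6, Actc1, Tnnt2, Tnni3 and Pln) split by genotype: per 1000000 nuclear counts their sum was 28600 to 28800 in untreated KO and 61500 to 63800 in untreated WT libraries, and 31400 to 32400 against 60200 to 65800 after CMC. All 5 were lower in KO without overlap in both settings. By the edgeR quasi-likelihood test 28.7% of all genes were called lower in KO untreated and 27.2% after CMC. A call is not the same measure as a lack of overlap, whose share over all genes was not counted. Myh6 made up most of the sum, with 16710 to 16960 in untreated KO against 33650 to 35130 in WT. Pln fell more, with 1148 to 1197 against 5757 to 6100. The 2 endothelial markers summed to 546 to 586 in untreated KO against 512 to 557 in WT, and the 2 fibroblast markers to 164 to 179 against 172 to 185. After CMC these sums were 640 to 689 against 546 to 617 and 148 to 163 against 176 to 184. Within the fibroblast sums the 2 genes went opposite ways without overlap in both settings. Untreated, Col1a1 was 98.21 to 106.2 in KO against 62.81 to 68.95 in WT, and Pdgfra 63.72 to 78.19 against 109 to 116.4. The 2 macrophage markers summed to 82.6 to 88.4 against 74.6 to 78.6 untreated, and to 74.2 to 76.7 against 73.2 to 78.4 after CMC. Replicate 3 of the CMC-treated WT group stood apart from its partners: its gene counts differed from theirs with a chi-square per degree of freedom of 2.08 and 2.43, against 1.12 to 1.39 for every other pair within a group. Replicate 1 of the same group had 1457 mismatches per 1000000 bases read in the stretch, against 924 to 1085 in the other 11 libraries. Results that rest on these libraries are given with and without them.

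Depth in the deposited tables does not pass 1000000, and WT libraries reached that ceiling. Their highest depth in the stretch was 999328 to 1000000, and 51 to 89 of the 791 positions stood at 900000 or more in each WT library. No KO library was near the ceiling, with highest depths of 187335 to 292544. Near the ceiling WT depth is a lower bound, and reads that begin there may be missing from the next bases as well. Taking the read length of 75 bases, as measured from the tables, 242 positions lay at the limit or within 1 read length downstream of it in some library. The other 549 positions, bases 1 to 53 and bases 266 to 761, are called clear here. Results are given for them wherever the limit could matter. The limit was taken as 900000 reads or more, and whether the ceiling also acted below that depth was not tested.

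**Figure D1:**
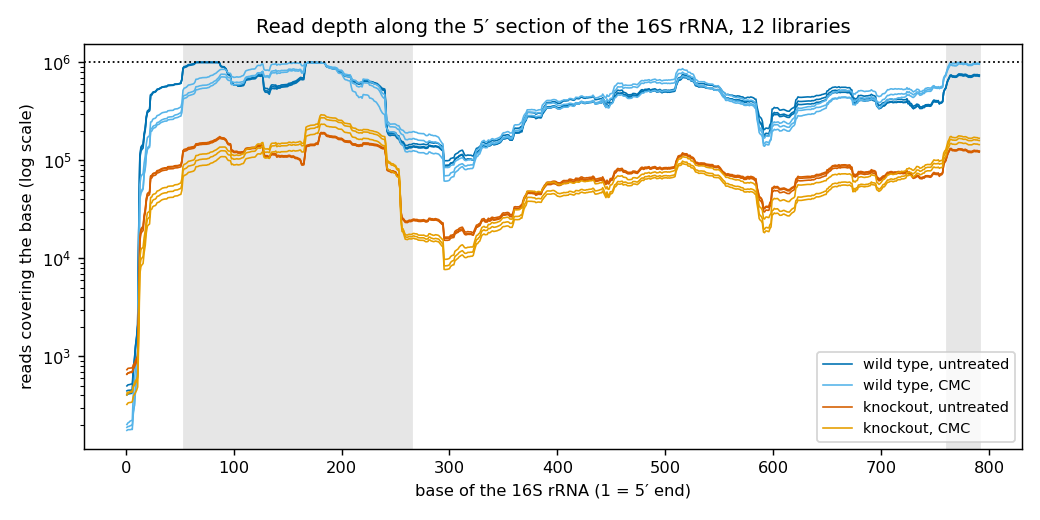
Reads covering each base (log scale) against the base of the 16S rRNA, one line per library in 4 colours for the 4 groups; the dotted line is the ceiling of 1000000 reads and grey marks positions at the limit or within 1 read length downstream. All 6 WT lines come to the ceiling while the KO lines peak between 187335 and 292544.

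Most of the 5′ portion was covered several times less deeply in KO than in WT hearts. Over the clear bases 266 to 761, mean depth per 1000000 nuclear counts was 18449, 20144 and 19398 in untreated KO libraries and 134364, 125354 and 124385 in WT libraries. After CMC it was 18195, 17395 and 16654 in KO and 125787, 132823 and 122296 in WT. The KO values lay below every WT value, 6.62-fold lower on the mean of untreated libraries and 7.29-fold lower after CMC. The exact two-sided permutation test gave p = 0.1 for both, the smallest p that 3 libraries against 3 allow. The whole gene behaved alike in the gene counts, with 228000, 243300 and 235000 mt-Rnr2 counts per 1000000 nuclear counts in untreated KO libraries against 1826000, 1787000 and 1757000 in WT, a difference of 7.6-fold. The sum of the cardiomyocyte markers was lower in the same KO libraries, 2.18-fold untreated and 1.95-fold after CMC on the means, and its part in the lower depth was not tested. In bulk heart RNA, fewer cells of a type and less RNA per cell cannot be told apart.

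Tested base by base with limma across the mitochondrial genome, 784 of the 791 positions were lower and 6 were higher in untreated KO libraries. After CMC 781 were lower and 7 higher. Over the whole mitochondrial genome 20.2% of positions were called lower and 76.6% higher in untreated libraries (96.7% in either direction), and 11% lower and 78% higher after CMC (88.9% in either direction). The median log2 difference was -2.74 over the 791 positions and 0.90 over all positions untreated, and -2.81 and 1.08 after CMC, so the stretch fell while most of the genome's positions rose. Neighbouring positions share reads and are not separate measurements. Within the clear bases 266 to 761 the difference was nearly even, from -2.80 to -2.50 on the log2 scale in untreated libraries and from -3.20 to -2.54 after CMC.

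**Figure D2:**
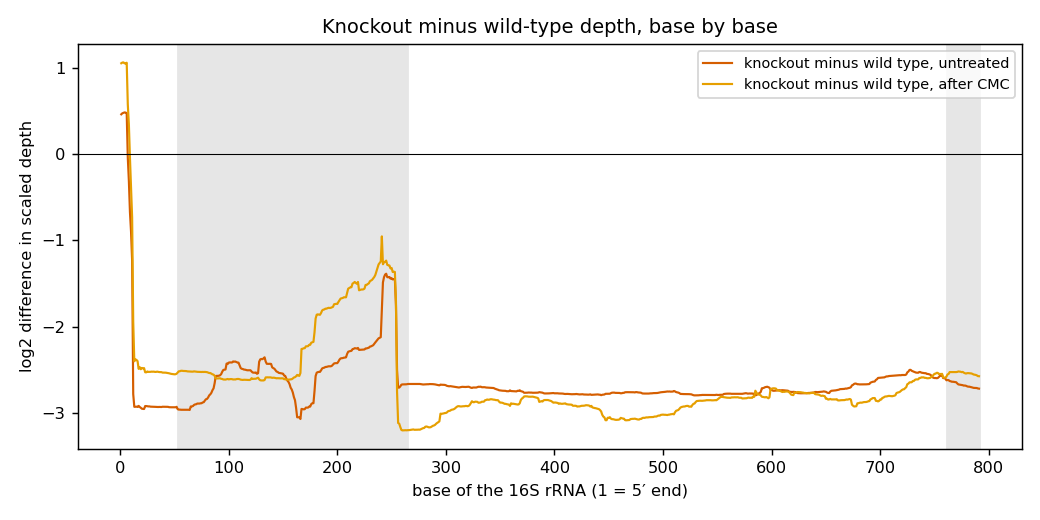
Difference between KO and WT in log2 depth scaled to nuclear counts (vertical axis) at each base of the 16S rRNA (horizontal axis), for untreated and CMC-treated libraries; grey marks positions at the depth limit or within 1 read length downstream. Both lines lie above 0 only in the first bases, reach medians of -2.93 and -2.53 over bases 12 to 53 and run near -2.75 and -2.86 over bases 266 to 761.

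The first bases went the other way. At base 1, depth per 1000000 nuclear counts was 202, 212 and 233 in untreated KO libraries and 141, 176 and 154 in WT libraries. After CMC it was 128, 148 and 116 in KO and 59.2, 59.9 and 69.1 in WT. The KO values were higher in both settings without overlap, and over bases 1 to 6 the median difference was 0.48 on the log2 scale untreated, or 1.39-fold, and 1.06 after CMC, or 2.08-fold. All 6 of these positions passed the test in both comparisons. Over the whole mitochondrial genome 76.6% of positions were called higher in KO untreated and 78% after CMC. The genome's median log2 differences were 0.90 and 1.08, so higher depth in KO was not particular to these bases. Reads at base 1 were few: 657, 661 and 732 in untreated KO libraries and 405, 500 and 445 in WT. Only 7 to 36 of them were on the reverse strand.

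Depth was higher in KO just upstream of the 16S rRNA as well, as it was at most positions of the mitochondrial genome. At the last base of mt-Tv, depth per 1000000 nuclear counts was 194, 204 and 226 in untreated KO libraries and 112, 122 and 106 in WT, 1.83-fold higher in KO. After CMC it was 127, 143 and 113 in KO and 45.4, 51.7 and 59.9 in WT, 2.44-fold higher. The depth at the last base of mt-Tv amounted to 95.9% to 97.1% of that at base 1 in untreated KO libraries and to 96.7% to 98.8% after CMC. In WT libraries it was 68.99% to 79.5% and 76.7% to 86.6%, so the groups did not overlap in either setting. The exact permutation test gave p = 0.1 for each of these comparisons, the smallest it allows. As a share of the depth at base 47, the depth at base 1 was 0.748% to 0.838% in untreated KO libraries and 0.0675% to 0.0839% in WT.

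Between bases 6 and 13 the direction of the difference turned. At base 7 the log2 difference between untreated KO and WT was -0.04 (SE 0.08, adjusted p = 0.616 with limma), and at base 12 it was -2.78. After CMC base 7 was still higher in KO by 0.58 (adjusted p = 0.0418), a call that was lost on leaving out any library but replicate 3 of WT, and base 12 was lower by 1.94 on that scale. The rise in WT libraries was largest from base 11 to base 12, where the log2 ratio of a base's depth to that of the base before it was 3.33, 3.21 and 3.18. In untreated KO libraries the same step was 1.66, 1.76 and 1.66. The step was smaller in KO by 1.55 (SE 0.13, adjusted p = 0.00342 with limma), with no overlap, but the call was lost without any 1 of the KO libraries and in a fit of all 12 libraries. After CMC the step was 1.93, 1.77 and 1.74 in KO and 2.92, 2.90 and 3.26 in WT, again without overlap, and did not pass the test (adjusted p = 0.495).

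The next step, from base 12 to base 13, differed less. It was 2.30, 2.30 and 2.29 in untreated KO libraries and 2.42, 2.45 and 2.46 in WT, with an adjusted p of 0.335. The rise began earlier in WT: from base 6 to base 7, depth rose by 0.12, 0.15 and 0.11 on the log2 scale in untreated KO and by 0.74, 0.51 and 0.68 in WT. That step was lower in KO by 0.52 (SE 0.06, adjusted p = 0.0102), and the call was lost without KO replicate 3.

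**Figure D3:**
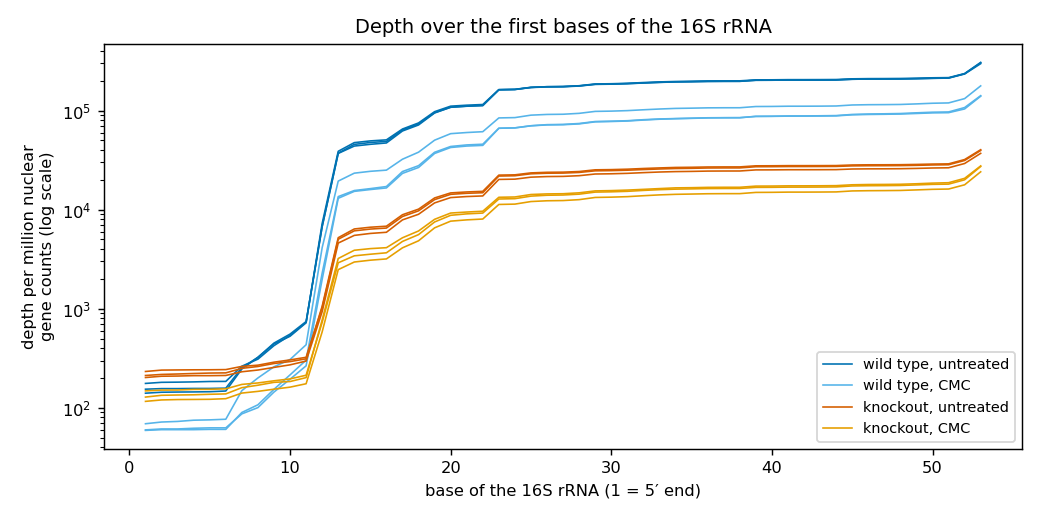
Depth per 1000000 nuclear gene counts (log scale) over bases 1 to 53 of the 16S rRNA, one line per library. KO lines lie above the WT lines of the same treatment at base 1 (202 to 233 against 141 to 176 untreated) and below them from base 12 on.

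CMC lowered the depth of the 5′ end in both genotypes. Over bases 1 to 6 the median log2 difference between CMC-treated and untreated libraries was -1.30 in WT and -0.72 in KO, and over bases 12 to 53 it was -1.13 in WT and -0.71 in KO. All of these positions were called lower in both genotypes, and the difference between the genotypes was not tested for depth. Over the whole stretch 336 positions were called in WT, 110 higher and 226 lower, where 34.4% of all mitochondrial positions were called (4.47% higher and 29.9% lower); without replicate 3 of the CMC-treated WT group the count was 527. In KO 716 positions were called, 195 higher and 521 lower, where 83.9% of all positions were called (45.9% higher and 38% lower). Over bases 266 to 761 the median difference was small, -0.02 in WT and -0.19 in KO. At base 23, for example, depth per 1000000 nuclear counts was 162860, 162060 and 161960 in untreated WT libraries and 66258, 66303 and 84280 after CMC. In KO it was 20185, 22310 and 21829 untreated and 13329, 12804 and 11282 after CMC. The CMC libraries lay below the untreated ones without overlap in both genotypes.

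The 5′ portion weighed more against the 3′ portion of the gene in KO than in WT. The log2 ratio of the mean depth of the 5′ portion to that of the 3′ portion was 0.40, 0.44 and 0.44 in untreated KO libraries and 0.19, 0.17 and 0.17 in WT. After CMC it was 0.49, 0.49 and 0.47 in KO and 0.22, 0.22 and 0.28 in WT. The ratio was thus higher in KO by 0.25 untreated (adjusted p = 1.1e-05 with limma) and by 0.24 after CMC, without overlap. Of the 15 mitochondrial rRNA and mRNA genes in the same test, 10 were higher (66.7%) and 4 lower (26.7%) in untreated KO libraries, 93.3% in either direction. After CMC 11 were higher (73.3%) and 2 lower (13.3%), 86.7% in either direction. At clear positions alone the ratio was 0.26, 0.31 and 0.31 in untreated KO libraries against 0.05, 0.01 and 0.01 in WT, and 0.39, 0.34 and 0.36 against 0.27, 0.29 and 0.22 after CMC, in each setting without overlap. There the difference between KO and WT was 0.27 untreated (adjusted p = 1.53e-05 with limma) and 0.10 after CMC (adjusted p = 0.019). Over all positions the change with CMC was 0.06 in each genotype, with adjusted p = 0.012 in KO and 0.068 in WT, where 100% and 53.3% of the genes were called; with the replicate number as a block the KO call was lost (adjusted p = 0.116). At clear positions the change with CMC was 0.24 in WT (adjusted p = 0.000853) and 0.07 in KO (adjusted p = 0.0147), and its difference between the genotypes was not tested.

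Relative to the gene's own mean depth, 393 positions differed between untreated KO and WT, 306 higher and 87 lower, where 69.3% of all positions within genes were called (38.2% higher and 31.2% lower). After CMC 486 differed, 102 higher and 384 lower, where 53.8% were called (20.6% higher and 33.3% lower); without KO replicate 2 or 3 the count was 236 or 289. On this scale the clear bases 266 to 761 differed little between untreated KO and WT, with a median log2 difference of 0.02. Of these 496 positions 116 were called higher in KO and 0 lower. After CMC they lay lower in KO, with a median of -0.22, 374 positions called lower and 3 higher. The gene's mean includes limited positions, where WT depth may be too low, so these values are not free of the limit. Neighbouring bases share reads, so these counts describe the profile.

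A large feature of the KO profile was an end of reverse-strand reads at bases 254 to 256. Where reads begin and end is given here in plus-strand order, not in the order of sequencing. From base 253 to base 256 reverse depth fell by 74.3%, 75.01% and 74.9% in untreated KO libraries and by 17.5%, 18.01% and 18.1% in WT. After CMC it fell by 82.2%, 80.9% and 79.0% in KO and by 13.4%, 11.5% and 18.9% in WT. Forward depth had no such fall: the difference in the step after base 254 was -0.75 for all reads (SE 0.00352, adjusted p = 2.61e-07 with limma) and -0.00 for forward reads alone. After CMC it was -1.04 for all reads (SE 0.0259, adjusted p = 0.000619).

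A gain of nearly the same size lay 1 read length upstream. With reads of 1 length, the gain and the loss are edges of largely the same reads and not separate results. Reverse depth rose from base 178 to base 181 by 60.7%, 58.9% and 58.7% in untreated KO libraries, which is 43929, 44519 and 43063 reads, and 43986, 44557 and 43135 reads were lost from base 253 to base 256. In WT libraries 17625, 18638 and 17257 reads were gained and 19152, 19966 and 18569 were lost. As a number of reads, WT thus lost fewer at this end than KO, although its reverse depth at base 253 was 1.83-fold higher. WT depth stood at the ceiling at bases 178 to 181, where these reads begin in plus-strand order, so the WT number is a lower bound. A KO-specific end and missing WT reads cannot be told apart.

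**Figure D4:**
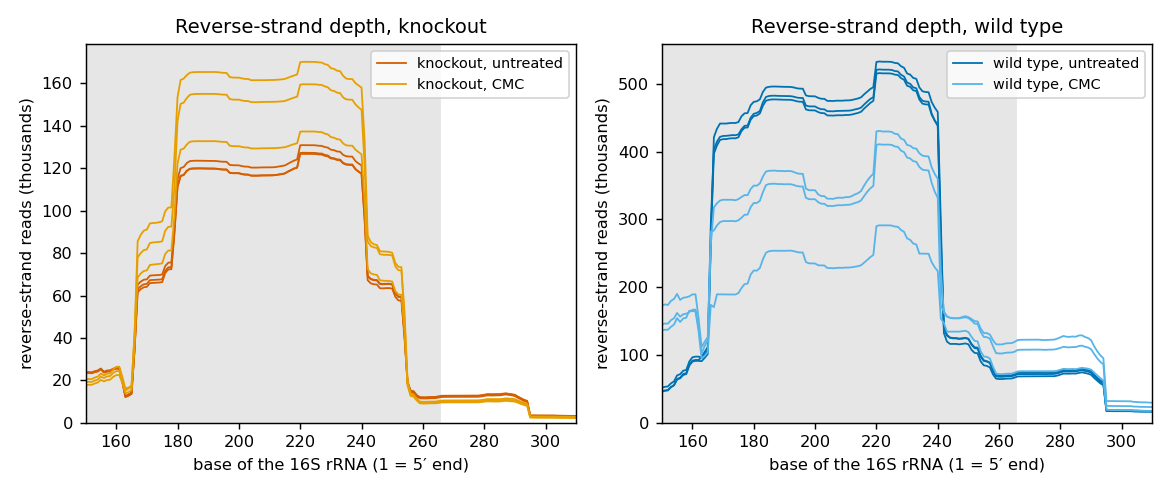
Reads on the reverse strand (in units of 1000) at bases 150 to 310 of the 16S rRNA, KO libraries on the left and WT libraries on the right on their own scale, one line per library; grey marks positions at the depth limit or within 1 read length downstream. KO lines drop at bases 254 to 256, losing 74.3% to 82.2% of reverse depth, whereas WT lines lose 11.5% to 18.9% there, and all 12 lines drop between bases 294 and 295.

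A second end of reverse reads, in the clear stretch and chosen after its values were seen, was shared by all groups. From base 294 to base 295 (chrM:1387-1388) reverse depth fell by 65.8% to 67.1% in untreated KO libraries and by 68.0% to 70.1% in untreated WT libraries. After CMC the falls were 65.8% to 69.1% and 66.3% to 71.1%, so the groups lay within a few percentage points of each other. Untreated, KO lay below WT without overlap (exact permutation p = 0.1, the smallest possible), and after CMC the genotypes overlapped. In total depth the step after base 294 was -0.53, -0.48 and -0.48 in untreated KO libraries and -0.48, -0.54 and -0.49 in WT, and it went to -0.67, -0.75 and -0.77 in KO and -0.90, -0.79 and -0.75 in WT after CMC. The step was thus more negative after CMC by 0.31 in WT (SE 0.0406, adjusted p = 0.0132 with limma) and by 0.23 in KO (SE 0.0307, adjusted p = 0.003). The difference of these changes was 0.08 and did not pass the test (adjusted p = 0.362). The share of forward reads at base 294 moved with it, from 53.2% to 56.1% in untreated KO and 54.5% to 57.2% in untreated WT libraries down to 39.1% to 42.5% and 33.7% to 40.0% after CMC.

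Most other steps were small. In untreated libraries 187 of 791 steps differed between KO and WT, where 10.3% of all steps of the genome were called, and 171 of the 187 differed by less than 0.1 on the log2 scale. Without KO replicate 2 or 3 the count was 110 or 108. Called steps were more frequent at limited positions, 136 of 242, than at clear ones, 51 of 549 (9.29%), a share near that of the genome. After CMC 21 steps were called, where 0.773% of the genome's steps were; 19 of them were at limited positions and 2 at clear ones. Without replicate 3 of the CMC-treated WT group the count was 183, without its replicate 1 it was 9, and without a KO library it was 5 to 10. The 2 clear steps, after bases 8 and 10, lie in the rise at the 5′ end: after base 10 the step was 0.13, 0.12 and 0.11 in KO and 0.49, 0.45 and 0.49 in WT.

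CMC changed 144 steps in WT, where 13.3% of all steps were called, and 418 in KO, where 50.9% were. Of the 418, 415 changed by less than 0.1 on the log2 scale. The WT count was 314 without replicate 3 and 74 without replicate 1 of the CMC-treated group, and 34 to 55 without an untreated library. Each genotype's treated and untreated libraries carry the same numbers in the labels; with that number as a block 1 step was called in WT and 254 in KO. The steps after base 97, within 1 read length downstream of the depth limit, were among those with the smallest p, although the WT call was lost with the block: depth fell there by 0.29, 0.30 and 0.31 in untreated WT and by 0.14, 0.15 and 0.13 after CMC, and by 0.23, 0.23 and 0.23 in untreated KO and by 0.14, 0.13 and 0.13 after CMC. Values after CMC were alike in both genotypes, and all lay apart from the untreated ones. The effect of CMC differed between genotypes at 55 steps, where 1.56% of the genome's steps were called. All 55 lay at limited positions, and none of the 549 clear steps was called, with 104 of them under an unadjusted p of 0.05. Without replicate 3 of the CMC-treated WT group 354 steps were called, and with the replicate block 24.

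Deleted bases in the reads became more frequent after CMC in both genotypes. At clear positions there were 28.2, 27.8 and 26.4 deleted bases per 1000000 bases read in untreated KO libraries and 28.2, 27.5 and 29.0 in WT. After CMC, KO libraries had 79.2, 67.2 and 79.8 and WT libraries 129, 156 and 81.0. The untreated groups overlapped, and each CMC group lay above its untreated group, 2.75-fold in KO and 4.32-fold in WT on the means (exact permutation p = 0.1 for each, the smallest possible). The KO values after CMC lay below the WT values, but by little from replicate 3 of WT, which was much lower than its partners.

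By base, T and A were deleted most. At clear positions the rate at T went from 34.3 to 37.7 per 1000000 in untreated KO libraries to 109, 87.1 and 122 after CMC, and from 38.5 to 40.4 in untreated WT libraries to 200.4, 250.1 and 112 after CMC. At A it went from 32.7 to 40.1 in KO to 98.3, 84.9 and 92.4, and from 34.6 to 37.0 in WT to 150.6, 177 and 101. At C and G the rates were lower, at most 11.1 per 1000000 untreated and 25.2 to 62.3 after CMC. CMC-treated libraries exceeded untreated ones at all 4 bases without overlap.

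Tested with the edgeR quasi-likelihood test on deletion counts with depth as offset, 253 of 357 tested positions of the stretch were higher after CMC in WT, where 68.1% of all tested mitochondrial positions were called. In KO 82 of 138 were higher, where 52.7% were called (52.6% higher). Both shares are near the background, so nothing in them sets this stretch apart. Of the called positions 81 were shared, 32.0% of the WT calls and 98.8% of the KO calls. Fewer positions could be tested in KO, whose depth was lower. A deletion of several bases in 1 read counts at each of them, and aligners usually place a deletion within a run at 1 end of the run, so neighbouring positions are not separate events.

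The position with the highest mean share was base 499 (chrM:1592), the first of the 4 T shown above. Deletions were found in 0.112%, 0.113% and 0.108% of reads in untreated WT libraries and in 0.504%, 0.633% and 0.325% after CMC. In KO they were found in 0.0918%, 0.0902% and 0.120% of reads untreated and in 0.306%, 0.234% and 0.347% after CMC. CMC raised the share without overlap in both genotypes, by 2.14 on the log2 scale in WT (SE 0.21, adjusted p = 4.13e-11 with edgeR) and by 1.55 in KO (SE 0.14, adjusted p = 3.1e-18). Between KO and WT the groups overlapped, both untreated (adjusted p = 0.826) and after CMC (adjusted p = 0.0774), where replicate 3 of WT decided the call: without it KO was lower by 0.94 on the log2 scale and passed.

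At base 463 (chrM:1556), the first of 6 A, the share went from 0.0740%, 0.0771% and 0.0814% to 0.412%, 0.462% and 0.287% in WT. In KO it went from 0.0912%, 0.0714% and 0.0882% to 0.282%, 0.238% and 0.247%. The G 2 bases before that A, base 461 (chrM:1554), showed the largest relative rise among the positions named: from 0.00461%, 0.00512% and 0.00577% to 0.126%, 0.137% and 0.0974% in WT, a log2 change of 4.53 (SE 0.29, adjusted p = 2.14e-16 with edgeR). In KO its share went from 0.00263%, 0.00630% and 0.00521% to 0.0800%, 0.0891% and 0.0892%. Only 11 untreated KO deletions, over the 3 libraries, stand behind that start. At both positions the CMC libraries lay above the untreated ones without overlap.

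At base 395 (chrM:1488), the first of 7 A, the share rose from 0.105% to 0.110% untreated to 0.312%, 0.392% and 0.214% in WT, and from 0.0953% to 0.136% to 0.186%, 0.177% and 0.175% in KO. At base 43 (chrM:1136), in the AT-rich 5′ end, it rose from 0.0754% to 0.0883% to 0.315%, 0.319% and 0.217% in WT and from 0.0548% to 0.0718% to 0.166%, 0.155% and 0.174% in KO. This position is clear of the limit but lies so near the 5′ end that 99.6% or more of its depth was on forward reads. Base 44 had almost the same shares. At both of these sites, and at base 463, KO and WT did not overlap after CMC, yet none passed the test over all positions, with adjusted p of 0.0747, 0.0712 and 0.09 (edgeR). Each passed without replicate 3 of the CMC-treated WT group.

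Untreated, no position of the 192 tested differed in deletions between KO and WT with edgeR, where 0.492% of all positions were called; 21 had an unadjusted p under 0.05, and limma also called 0. After CMC 14 of 337 were lower in KO and none higher, where 1.15% were called (1.07% lower), and 11 of the 14 were at limited positions. That count rested on single libraries: it was 122 without replicate 3 of the CMC-treated WT group, 0 or 1 without any other library, and 0 with limma. The rise with CMC was smaller in KO than in WT at 7 of 370 positions, where 0.661% were called, and limma called 0. Without replicate 3 of the CMC-treated WT group the count was 29, and without any 1 of 10 of the other 11 libraries it was 1 to 4. Of the 7, 4 were at limited positions and 3 at clear ones. The clear ones had log2 differences of -3.07 at chrM:1545, -2.04 at chrM:1564 and -2.94 at chrM:1577. Only base 59 (chrM:1152), the first of 3 T, met the rule for named positions. Its share went from 0.0167%, 0.0193% and 0.0189% to 0.116%, 0.166% and 0.0511% in WT and from 0.02998%, 0.0273% and 0.0217% to 0.0417%, 0.0308% and 0.0515% in KO, a difference of -1.95 on the log2 scale (SE 0.32, adjusted p = 9.13e-06 with edgeR). The base stood at the depth limit in WT, and replicate 3 of the CMC-treated WT group lay within the KO range.

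Among mismatches, C read as T rose most with CMC. At the 99 clear C of the stretch, C was read as T in 227, 222 and 224 reads per 1000000 in untreated KO libraries and in 241, 247 and 248 in WT. After CMC it was read as T in 699, 679 and 679 in KO and in 781, 870 and 705 in WT. The rise was 3.05-fold in KO and 3.2-fold in WT, without overlap (exact permutation p = 0.1 for each, the smallest possible). KO lay below WT by a small margin in both settings, also without overlap. C read as A was more frequent, and its groups overlapped: its mean per 1000000 was 1060 in untreated KO and 1050 after CMC, and 1030 in WT in both settings (exact permutation p = 0.9 and 1). T read as C went from 122, 125 and 126 to 178, 187 and 154 in WT without overlap, and from 129, 135 and 134 to 141, 135 and 145 in KO. T read as A was less frequent after CMC without overlap, from 808, 822 and 718 to 699, 705 and 707 in WT and from 820, 797 and 817 to 704, 713 and 781 in KO. A read as C and T read as G were lower after CMC in KO, also without overlap. In the 10 types other than C read as T and C read as A the mean changed by at most 1.42-fold with CMC, and replicate 1 of the CMC-treated WT group stood apart in several. It had 679 A read as T and 583 T read as G per 1000000, against at most 405 and 264 in the other 11 libraries.

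**Figure D5:**
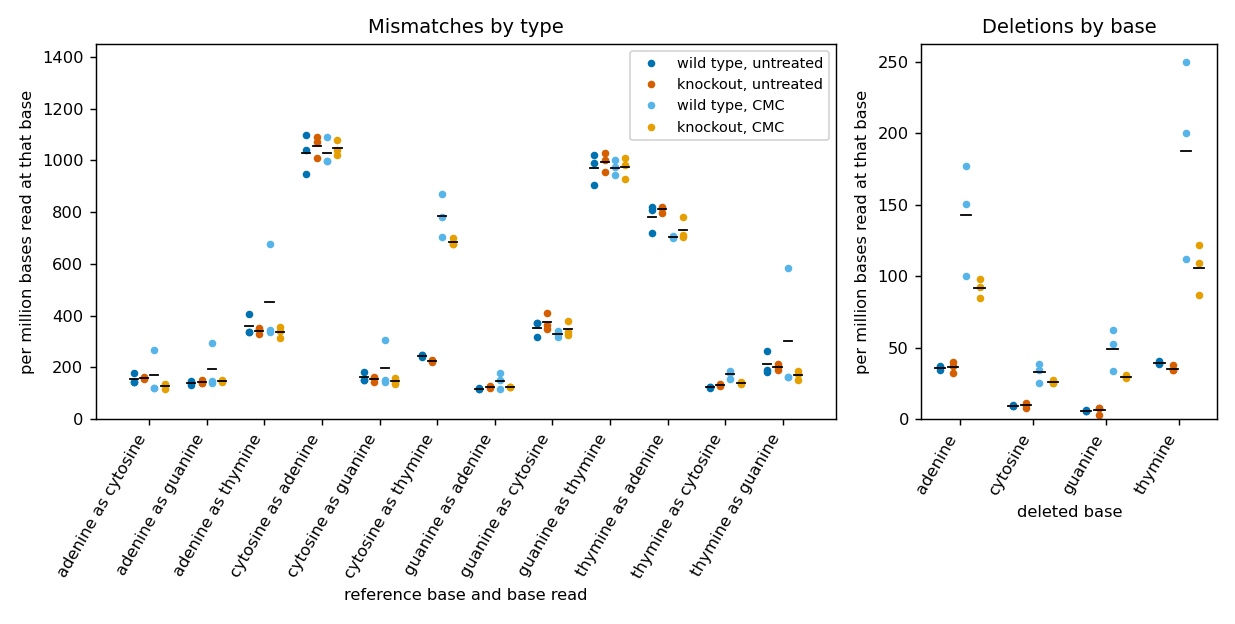
Mismatches of each type (left) and deletions at each base (right) per 1000000 bases read at clear positions, with 1 point per library, a bar at each group mean and the 4 groups in colours. Cytosine read as thymine rises from 222 to 248 in untreated libraries to 679 to 870 after CMC, deletions rise at all 4 bases, and 1 WT library treated with CMC stands above the others in several mismatch types.

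Position by position, 73 of 779 tested positions had more mismatches after CMC in WT and none had fewer, where 3.88% of all positions were called. Of the 73, 66 (90.4%) were C, against 18.2% of the positions tested. In KO 69 were higher and 20 lower, where 15% were called (10.1% higher and 4.99% lower), and 64 of the 69 (92.8%) were C. The 2 genotypes shared 58 positions called higher, 79.5% of the WT calls and 84.1% of the KO calls. C led in the same way over the whole mitochondrial genome, with 96.1% of the positions called higher in WT and 92.1% in KO, so this was not particular to the 16S rRNA. The WT count depended on single libraries: it was 0 without replicate 1 or without replicate 3 of the untreated WT group, 28 without its replicate 2, 164 without replicate 1 and 34 without replicate 2 of the CMC-treated group, and 21 with the replicate block. The effect of CMC passed the test of a difference between genotypes at 0 of 779 positions with edgeR, and at 0% of all positions; 57 had an unadjusted p under 0.05; without replicate 1 or 3 of the CMC-treated WT group 5 or 3 were called.

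Among clear positions named by the rule, base 495 (chrM:1588) had mismatches in 0.0985%, 0.101% and 0.0923% of reads in untreated WT libraries and in 0.229%, 0.226% and 0.218% after CMC. In KO it went from 0.0932%, 0.0890% and 0.103% to 0.182%, 0.237% and 0.182%. The change C1588T alone (the reference base, the position on chrM and the base read) went from a mean of 0.0268% ± 0.00242 (SD, n = 3) to 0.154% ± 0.00341 in WT and from 0.0229% ± 0.00972 to 0.134% ± 0.0317 in KO. Base 555 (chrM:1648) behaved alike, with C1648T at 0.0214% ± 0.00349 and 0.131% ± 0.0101 in WT and at 0.0176% ± 0.00281 and 0.132% ± 0.0219 in KO. So did base 460 (chrM:1553), where C1553T rose to 0.183% ± 0.00667 in WT and 0.161% ± 0.0203 in KO, and base 693 (chrM:1786), where C1786T rose to 0.164% ± 0.0168 and 0.153% ± 0.0239. The calls in WT at bases 495 and 693 were lost without replicate 1 or replicate 3 of the untreated group.

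The highest share of mismatches in the stretch was at base 587 (chrM:1680), a C followed by AA. It was 0.531%, 0.480% and 0.503% in untreated KO, 0.504%, 0.540% and 0.490% in untreated WT, 0.460%, 0.537% and 0.431% in CMC-treated KO and 0.553%, 0.461% and 0.449% in CMC-treated WT libraries. All 4 groups overlapped, and no comparison passed the test. Most of these reads had A, with C1680A making up 86.5% of them, and 94.7% were on the forward strand. The next highest, C1842A, G1702T and C1452A, were of the same kinds, C read as A or G read as T, and total mismatches at these 3 positions ran from 0.257% to 0.528% over the 12 libraries. Of these, only chrM:1702 passed in a comparison, with a lower share after CMC in KO (log2 difference -0.42, SE 0.12, adjusted p = 0.00807 with edgeR).

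Between genotypes, 14 of 779 positions differed in mismatches in untreated libraries, where 0.238% were called, and all 14 were at limited positions, none of the 537 clear ones (24 with an unadjusted p under 0.05). The 5 with the smallest p lie at bases 236 to 254, next to the end of the KO reverse reads: base 253 (chrM:1346) had mismatches in 0.0755%, 0.0620% and 0.0495% of reads in KO and in 0.139%, 0.136% and 0.148% in WT, a log2 difference of -1.17 (SE 0.15, adjusted p = 3.65e-07 with edgeR). Bases 252 and 254 were lower in KO as well, and without a KO library 6 to 9 positions were called. After CMC 2 positions were called, where 0.0367% were, of which base 253 was 1, and none was called without a KO library or without replicate 2 of WT. Without replicate 1 of the CMC-treated WT group 25 were called. At base 253 the KO reads that end there add to the depth, and their part in the lower share was not tested.

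Inserted bases went in opposite ways with CMC. At clear positions there were 23.2, 21.6 and 24.7 insertions per 1000000 bases read in untreated KO libraries and 16.9, 16.2 and 16.4 in WT. After CMC, KO libraries had 17.5, 16.7 and 17.5 and WT libraries 28.3, 39.0 and 18.7. KO lay above WT untreated and below it after CMC, without overlap in each setting (exact permutation p = 0.1, the smallest possible), though replicate 3 of the CMC-treated WT group came close to the KO values.

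Genes known to act on the 16S rRNA were tested as a list of 27, chosen with earlier results of these data known. In untreated libraries 7 were higher and 3 lower in KO with the edgeR quasi-likelihood test, where 57.9% of all genes were called (29.2% higher and 28.7% lower), and the share of the list was below that. After CMC 3 of 26 tested were higher and 7 lower, where 54.3% were called (27.1% higher and 27.2% lower), and 6 in all without replicate 2 of WT. Apart from Ptcd1 itself (log2 difference -1.93 untreated, SE 0.19, adjusted p = 3.08e-19), the largest called rise was that of Elac2, the enzyme that cuts tRNAs at their 3′ ends, by 0.86 (SE 0.12) untreated and 0.75 (SE 0.11) after CMC. Mrm3, which methylates a guanosine of the 16S rRNA, rose by 0.48 and 0.56, the second lost without KO replicate 2 or WT replicate 1. Trmt10c, a subunit of mitochondrial RNase P, which cuts tRNAs at their 5′ ends, rose by 0.51 untreated and was higher by 0.27 after CMC, which did not pass (adjusted p = 0.098) except without WT replicate 3. Nsun4, a methyltransferase of mitochondrial rRNA, rose by 0.37 and Dhx30, an RNA helicase, by 0.26 untreated, the first lost without replicate 2 of either genotype and the second without KO replicate 3. Mtg2, a GTPase of large subunit assembly, fell by 0.50 untreated and by 0.66 after CMC. Mtg1, another GTPase of assembly, fell by 0.90 after CMC, a call lost without replicate 1 or 2 of either genotype, and was at -0.21 untreated (adjusted p = 0.609). Hsd17b10 fell by 0.35 after CMC (adjusted p = 0.00173 with edgeR) and was at -0.10 untreated (adjusted p = 0.259). Mrm2 fell by 0.96 untreated (adjusted p = 0.019) and was at -0.75 after CMC (adjusted p = 0.0502). Rpusd4 fell by 0.67 after CMC (adjusted p = 0.0479) and was at 0.04 untreated (adjusted p = 0.9). Pnpt1 rose by 0.31 after CMC (adjusted p = 0.0114) and was at 0.06 untreated (adjusted p = 0.578). With DESeq2 only 3 of the list were called untreated and 4 after CMC.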

How the data were processed

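Total RNA of mouse hearts was sequenced in 12 libraries, 3 for each of 4 groups. The submitters' processing notes name HISAT2 2.0.5, SAMtools 1.5, featureCounts 1.5.1, DESeq2 1.16.1 and mm10; the sources used here do not give which tool made which file or how strand was read. The authors deposited counts: reads per gene, and for each chrM position the reads, forward and reverse reads, mismatches, deletions and insertions. Their tables of differential genes and terms were not used here.

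Depth per position was scaled to nuclear gene counts (TMM effective sizes) and tested on log2(value + 1) with limma 3.58.1, as were steps (log2 ratio of the next base's depth, both at 100 reads or more), depth relative to the gene's mean, and the 5′ to 3′ ratio. Deletions and mismatches (20 or more in all) and genes went through edgeR 4.0.16 (quasi-likelihood test). P-values were adjusted by Benjamini-Hochberg over all mitochondrial positions or genes, with a threshold of 0.05, in up to 5 comparisons: KO against WT in each treatment, CMC against untreated in each genotype, and the difference of the CMC effects. Single values were compared by exact two-sided permutation tests, which cannot go below 0.1. PCR copies are not independent molecules, so counts can vary by more than counting error. The read length of 75 was measured from the lag between forward gains and losses. R 4.3.3, DESeq2 1.42.0, the data.table package (1.17.8), Python 3.11.15, pandas 2.3.3, numpy 2.4.6, scipy 1.17.1 and matplotlib 3.10.9 were used, and the fits were tested on simulated data.

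Positions were named by a rule: in each comparison up to 5 called positions with the smallest p and groups that do not overlap (share of 0.1% or more for read errors), the 5 highest mean shares, and the 5 largest steps in untreated WT; depth at the ends, every 100 bases and the extremes; Ptcd1, mt-Rnr2 and up to 6 factor genes a comparison. The stretch, lists and tests were chosen with earlier results of these data known. The labels number the libraries alike in both treatments of a genotype but do not say that equal numbers mark 1 heart. Deviations of same-numbered libraries of 1 genotype from their group means correlated by -0.034 to 0.008. Counts with the number as a block stand beside the comparisons of CMC with untreated libraries where they differ.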

Additional observations from a re-analysis of the deposited data

Results flagged for a closer look

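The effect of CMC differed between KO and WT, by a test of the difference itself, at 55 steps in depth and at 7 positions in deletions among the 791. The 5 steps with the smallest p all lay at the depth limit or within 1 read length downstream of it. There the log2 difference of the CMC effects, KO minus WT, was 0.04 at chrM:1249, -0.03 at chrM:1186, -0.03 at chrM:1178, 0.12 at chrM:1255 and 0.06 at chrM:1252. For deletions it was -1.95 at chrM:1152, also at the limit. The part of the depth limit in these differences was not tested, and none of the 549 clear steps was called. Of the 7 positions called for deletions, 4 were limited and 3 were clear. The clear ones had differences of -3.07 at chrM:1545, -2.04 at chrM:1564 and -2.94 at chrM:1577.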

How the results depend on the processing

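The 27 main results were recomputed under 377 alternatives, of which 252 kept direction and call, or a count within 1.5 times, and 125 did not. Of 2644 alternatives for 213 named positions and genes, 2442 kept direction and call, 146 lost a call, 49 gained one and 7 reversed. In every list here the order is KO against WT untreated, KO against WT after CMC, CMC in WT, CMC in KO, and the difference of the CMC effects, and the cause was not tested. Farther than about 2 read lengths from the limit, where only 269 positions are left, depth calls numbered 269, 269, 37 and 236; shape calls 0 and 243; step calls 16, 0, 16, 114 and 0; deletion calls 1 after CMC, 87 in WT and 23 in KO; mismatch calls 0, 0, 17 and 32. At clear positions, an alternative chosen after seeing the data, shape calls numbered 168 untreated, step calls 48, 1, 65, 253 and 0, deletion calls 1 after CMC, 161 in WT and 53 in KO, and mismatch calls 0, 0 and 38. For shape, the gene's mean still included limited positions under both alternatives. With pairs of KO and WT libraries included, deviations of same-numbered replicates correlated by -0.053 to 0.008. Whether equal numbers mark 1 heart is not stated. With the replicate block, shape calls after CMC numbered 298, step calls 81, 0, 1, 254 and 24, mismatch calls 0 after CMC and 21 in WT, and the change of the 5′ to 3′ ratio with CMC in KO was 0.058, no longer called. With all 12 libraries in 1 fit, shape calls untreated numbered 246, step calls 91, 86 and 311, deletion calls after CMC 52, mismatch calls 1, 9, 112 and 56, and the ratio in WT, 0.064, was called. With forward reads alone, shape calls numbered 709 and 246, step calls 101, 3 and, for the difference, 32; the ratio was 0.125 in WT and 0.034 in KO. With reverse reads alone, shape calls untreated numbered 603 and the ratio in WT was -0.008. The ratio in WT was 0.141 without about 2 read lengths at each end and 0.237 at clear positions, and in KO -0.055 from median depth. With limma, deletion calls after CMC and for the difference were 0 and 0, and mismatch calls 0, 0, 27 and 55. With at least 100 events, deletion calls were 3 after CMC, 159 in WT, 22 in KO and 0 for the difference, and mismatch calls after CMC 1; with no minimum, deletion calls after CMC were 27. DESeq2 called 3 and 4 factor genes. Named values that reversed were, on forward reads, the steps at chrM:1271 untreated (-0.001), chrM:1255 for the difference (-0.000) and chrM:1334 in WT (-0.013), and, on reverse reads, depth in KO at base 1 (0.396), chrM:1097 (0.462) and chrM:1100 (0.478) and in WT at chrM:1393 (0.396). Leaving out 1 library in turn gave depth calls of 790 to 790, 787 to 789, 263 to 527 and 609 to 742; shape calls of 346 to 472 and 236 to 681; ratios of 0.242 to 0.261, 0.232 to 0.265, 0.042 to 0.075 and 0.046 to 0.065; step calls of 108 to 172, 5 to 183, 34 to 314, 290 to 490 and 40 to 354; deletion calls of 0 to 0, 0 to 122, 210 to 266, 64 to 80 and 1 to 29; mismatch calls of 6 to 17, 0 to 25, 0 to 164, 72 to 86 and 0 to 5; and factor genes of 7 to 9 and 6 to 12.

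The limits are the depth ceiling in WT and the few reads at bases 1 to 6. For the ceiling, 131 positions stood at 900000 reads or more in some library, and 242 stood there or within 1 read length downstream. Another limit is that replicates 1 and 3 of the CMC-treated WT group decided several counts. Lower depth in KO left fewer deletions to test. Neighbouring positions share reads, so counts of positions overstate the number of separate events.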
